A study of Mus musculus with 29 samples.

Results

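The genes described here are 30 genes that mark astrocytes: the cytoskeletal and calcium-binding genes Gfap and S100b, the membrane genes Aqp4, Mlc1, Hepacam, Ttyh1, Cldn10, Slc4a4 and Atp1b2, the connexins Gja1, Gjb2 and Gjb6, the amino acid genes Slc1a2, Slc1a3, Slc7a10, Slc6a11 and Glul, the metabolic genes Aldh1l1, Aldoc, Acsbg1, Fabp7 and Pla2g7, the secreted and matrix genes Clu, Cst3, Mfge8 and Bcan, the receptor and signalling genes Ntsr2 and Ndrg2, and the transcription factors Nfia and Nfib. They were chosen by symbol as known astrocyte markers and not by a rule on measured values, but with earlier results of these data known. All 30 were found among the 25239 genes of the deposited table, and all 30 passed the filter on low values, a mean of at least 1 over the libraries, that left 15719 genes to test.

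Astrocytes take up glutamate and GABA, convert glutamate to glutamine, buffer ions and water at their endfeet and are coupled to each other through connexin channels. The genes for these functions are used as astrocyte markers, and forced expression of the proneural transcription factor Neurog2 can turn cultured astrocytes into neurons. During such a conversion the astrocyte programme has to give way to a neuronal programme.

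The cells were primary astrocytes from the cerebral cortex of wild-type C57BL/6J mice that were 5 to 6 days old by the growth protocol (6 to 8 days in the series description), with the meninges removed, expanded for 10 days in serum-containing medium with bFGF at 10 ng/ml or with EGF and bFGF at 10 ng/ml each. The labels name cortical grey matter and the study's methods white matter, and oligodendrocyte precursors were shaken off. The cells were transduced with retroviruses carrying Neurog2, Hmgb2 (an HMG-box protein that bends DNA), both, or only a fluorescent reporter (control), from a CAG promoter that is active in most cell types. Sorted cells with the reporter were collected 48 h later, so that the libraries hold transduced cells and not the whole culture. Vectors of this kind transduce dividing cells, but whether the sorted cells were a dividing fraction was not tested. The bFGF culture gave 3 Neurog2 + Hmgb2, 4 Neurog2, 4 Hmgb2 and 3 control libraries, and the EGF + bFGF culture gave 3 Neurog2 + Hmgb2, 3 Neurog2, 4 Hmgb2 and 5 control libraries. All 8 groups share the genotype, the serum, the bFGF and the type of retroviral vector. Per the study, the Neurog2 virus carried dsRed, the Hmgb2 virus GFP, and the control virus of the RNA comparisons GFP. Reporter and number of viruses therefore differ between the groups together with the transduced genes. The sources do not say whether libraries of a group came from separate cultures, so the p-values measure the spread between these libraries. The values are regularized log2 values (rlog), in which differences of low genes are shrunk towards 0, and they hold no read depth.

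The labels were checked first on the transduced genes. Neurog2 lay between 12.4 and 14.3 in the 13 libraries with the Neurog2 virus, against 7.74 to 8.22 in the 8 control libraries, and Hmgb2 averaged 12.43 ± 0.33 in bFGF Neurog2 + Hmgb2 libraries and 9.56 ± 0.30 in bFGF control libraries (SD, n = 3 each). The 8 libraries labelled Hmgb2 alone had Neurog2 levels of 9.35 to 11.5, above every control library and below every library with the Neurog2 virus. Comparisons over all groups are therefore also given without these 8 libraries. In addition, 9 of the 29 libraries stood apart on the main axis of deviations from group means, taken over 15555 genes outside every gene list used here, an axis that held 45.3% of those deviations. The lowest of the 9 libraries lay at 23.4 on it and the highest of the other 20 at 8.63. They were Neurog2 + Hmgb2 replicate 1, Neurog2 replicate 1, Hmgb2 replicates 1 and 2 and control replicate 2 of the bFGF culture, and Neurog2 + Hmgb2 replicate 2, Hmgb2 replicate 2 and control replicates 2 and 3 of the EGF + bFGF culture. No label marks them, but replicate numbers recur among them within a culture. In EGF + bFGF culture they include replicate 2 of every group except Neurog2. In bFGF culture they include replicate 1 of every group except control. Whether libraries with the same number shared a preparation is not stated. Results that rest on the 9 libraries are given with and without them. Without them, both Neurog2 + Hmgb2 groups and the bFGF Hmgb2 and bFGF control groups hold 2 libraries each, and the other groups 3 each.

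The levels of the 30 genes spanned a wide range. Per kilobase of exon, and as a mean of rlog over 29 libraries, Cst3, a secreted protease inhibitor, was highest at 13.08, followed by Gfap, the intermediate filament of astrocytes, at 12.95 and Fabp7, a fatty acid binding protein of radial glia and young astrocytes, at 12.25. Clu, Mlc1, Atp1b2, Aqp4, Mfge8 and Acsbg1 came next, between 10.23 and 9.06. The lowest were Gjb6 at 1.00, Slc6a11 at 2.04, Cldn10 at 2.09, Slc7a10 at 2.92, Gjb2 at 3.99, Ntsr2 at 4.47 and S100b at 4.81. Of these, Gjb6 is a connexin (connexin 30), Slc6a11 a GABA transporter (GAT3) and Slc7a10 a neutral amino acid transporter (Asc-1). In bulk samples, fewer cells of a type and less RNA per cell cannot be told apart.

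The strongest feature of the 30 genes was a joint variation between libraries of the same group. Their median within-group SD was 0.848, against 0.296 over all tested genes, and 4.44% of all tested genes exceeded the median of the 30. A single axis held 75.8% of their deviations from the group means. In 27 of the 30 genes the within-group SD exceeded the SD of the 8 group means, which was also the case in 92.6% of all tested genes. The exceptions were Slc4a4, Gja1 and Gjb2.

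**Figure D1:**
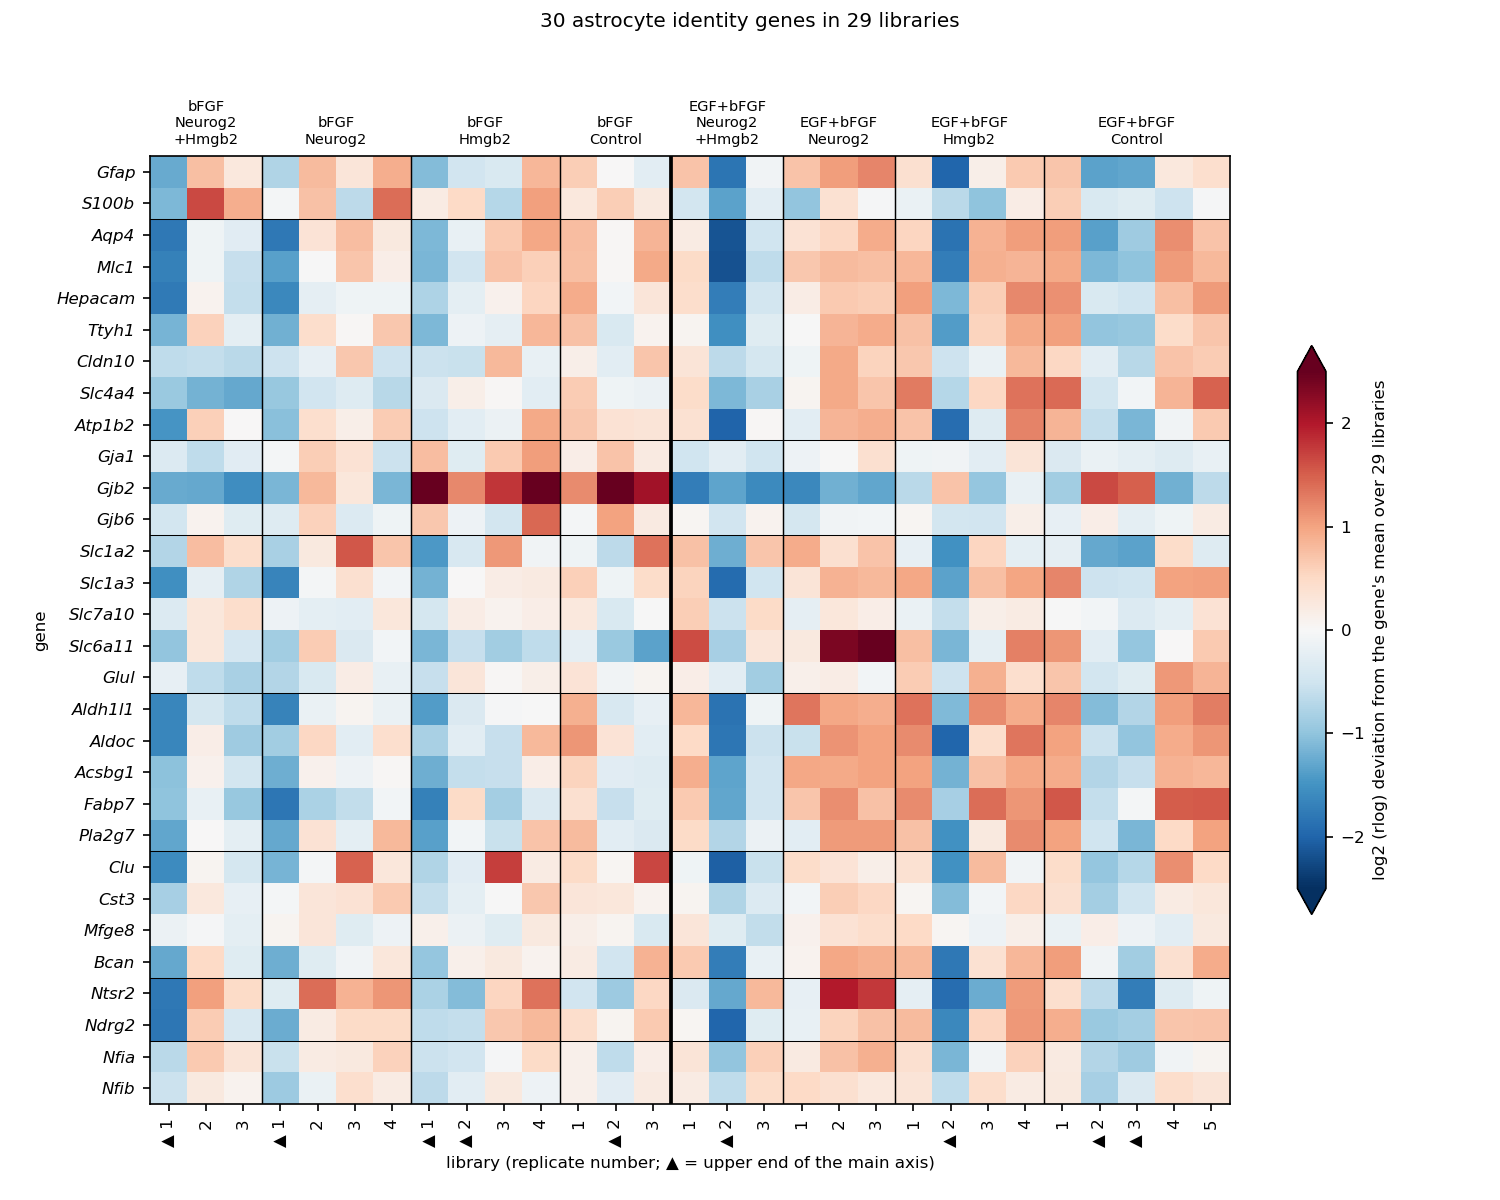
Deviation of each of the 30 genes (rows, grouped by role) from its own mean over 29 libraries (columns, grouped by culture and virus), on the log2 rlog scale, red for higher and blue for lower. The columns marked with a triangle are the 9 libraries at the upper end of the main axis, and at least 16 of the 30 genes are lower there than in every other library of the group, while Gjb2 is higher in most of these groups. Of all tested genes, 25.8% to 46.3% are lower in the same sense, depending on the group.

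The joint variation ran with the main axis of all other genes. The mean level of the 30 genes lay between 8.21 and 9.46 in the 9 libraries at the upper end of that axis, with a median of 8.85, and between 9.16 and 10.18 in the other 20, with a median of 9.76. In all 7 groups with libraries of both kinds the median difference of the 30 genes was below 0, and it ranged between -1.82 in EGF + bFGF Hmgb2 libraries and -0.48 in bFGF control libraries, while the median of all tested genes lay between -0.05 and -0.01. In the EGF + bFGF control group 24 of the 30 genes were lower in both upper libraries than in each of the other 3, against 31.1% of all tested genes, and in the bFGF Hmgb2 group 16 of 30 were, against 25.8%. Over the 7 groups the count ranged between 16 and 26 of 30, and the share of all tested genes between 25.8% and 46.3%. The mean of 43 further astrocyte genes moved the same way, with 6.85 to 7.87 in the 9 libraries and 7.66 to 8.61 in the other 20.

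Other marker lists moved with the axis too. The mean of the 12 cell cycle genes was 9.60 to 10.35 in the 9 libraries and 8.26 to 9.88 in the other 20. Within the other 20, deviations of this list from group means ran with those of the astrocyte mean instead (r = 0.62), and those of the 16 reactive astrocyte genes ran against it (r = -0.69). The mean of the 9 endothelial markers was 2.82 to 3.50 in the 9 libraries, against 2.21 to 2.93 in the other 20, although Cldn5, Tie1 and Emcn, which define endothelial cells, were at mean rlog values of -1.75, -2.15 and -1.01 and did not pass the filter. The microglial list (18 genes) ranged between 5.26 and 8.58 in the 9 libraries and between 4.51 and 8.91 in the other 20. Whether a mixture of cells or the cycling state of the cells has a part in the astrocyte levels was not tested.

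**Figure D2:**
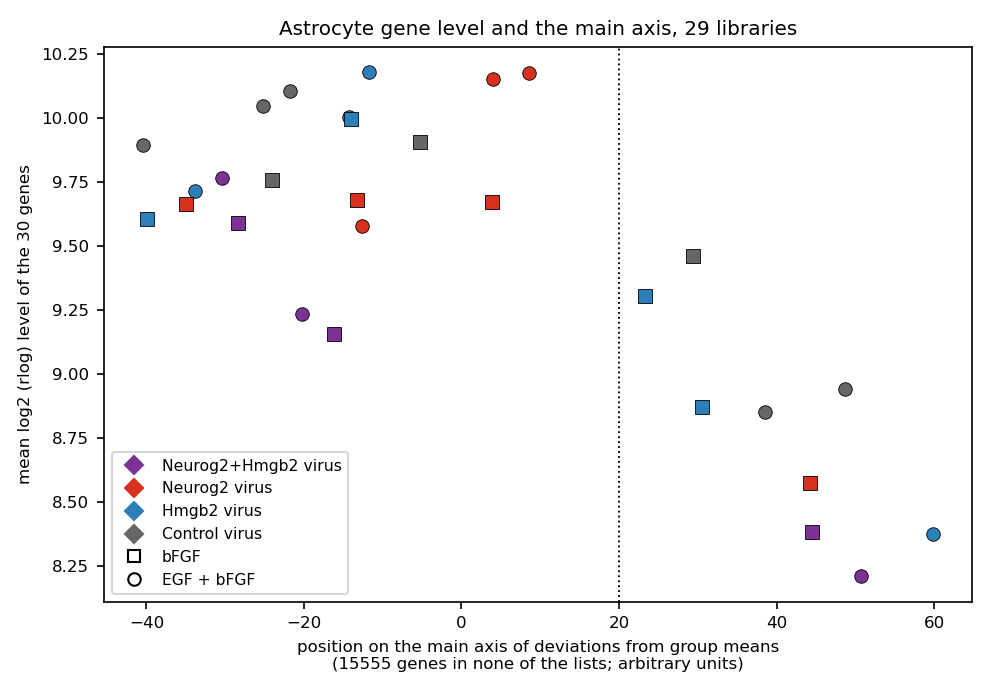
Mean log2 rlog level of the 30 genes in each of 29 libraries against the position of the library on the main axis of 15555 other genes (arbitrary units, dotted line at 20), with the virus by colour and the culture by shape. The 9 libraries right of the line lie between 8.21 and 9.46, and the 20 on the left between 9.16 and 10.18.

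Single genes took part to different degrees. Averaged over the 7 groups, the difference between upper and other libraries was -1.83 for Aqp4, the water channel of the endfeet, -1.71 for Mlc1, a membrane protein of astrocyte junctions, -1.62 for Ndrg2, -1.61 for Ntsr2 and -1.55 for Aldh1l1. At the other end it was 0.02 for Mfge8, a secreted bridging protein for phagocytosis, 0.01 for Gja1 (connexin 43) and -0.13 for Gjb6. Gjb2 (connexin 26) went the other way, with 0.56 on average and a range between -1.13 and 2.48. Within the 20 other libraries, where deviations from group means were set against the mean of the remaining astrocyte genes, Cst3 (r = 0.91), Hepacam (r = 0.91) and Aldoc (r = 0.87) followed the mean most closely, and Nfib (r = -0.52), Slc1a2 (r = -0.50) and Clu (r = -0.39) ran against it. These correlations are over 20 libraries that share their normalization and are given as a description.

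Against this spread few differences between groups passed the test. A gene counts as called at an adjusted p under 0.05 in a linear model over all libraries (limma, Benjamini-Hochberg over 15719 genes), and log2 differences are given with their standard error. In bFGF culture, Neurog2 + Hmgb2 against control gave 1 of 30 lower, Gjb2, and 0 higher, where 0.452% of all tested genes were lower and 1.03% higher. At an unadjusted p under 0.05 this comparison gave 3 of 30, against 15.7% of all genes. Under EGF + bFGF, Neurog2 + Hmgb2 against control gave 0 of 30, where 0.522% of all genes were lower and 1.46% higher, and at an unadjusted p under 0.05 it gave 3 of 30, against 13.3% of all genes. Neurog2 alone gave 0 of 30 in bFGF culture (1 of 30 unadjusted, against 8.26% of all genes) and 0 of 30 in EGF + bFGF culture (4 of 30 unadjusted, against 12.4% of all genes). At the adjusted threshold, 0.0127% of all genes were lower and 0.337% higher in bFGF culture, and 0.229% were lower and 1.35% higher in EGF + bFGF culture. Hmgb2 alone gave 0 of 30 in either culture, where 0.00636% of all genes were higher in bFGF and 0.0127% in EGF + bFGF culture and 0% lower in both. At an unadjusted p under 0.05 it also gave 0 of 30, against 0.414% of all genes in bFGF and 0.782% in EGF + bFGF culture.

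The direction of the 30 genes differed between these comparisons without passing a test. Their median log2 difference was -0.60 for Neurog2 + Hmgb2 in bFGF culture, with 25 of 30 below 0, and -0.56 in EGF + bFGF culture, with 24 of 30 below 0. For Neurog2 alone the median was -0.36 in bFGF culture, with 23 of 30 below 0, and 0.35 in EGF + bFGF culture, with 25 of 30 above 0. The medians of all tested genes in these comparisons lay between -0.01 and 0.01, while the median standard error of the 30 genes was 0.58 to 0.65. None of the 3 EGF + bFGF Neurog2 libraries is among the 9 libraries at the upper end of the main axis, whereas 2 of the 5 EGF + bFGF control libraries are. Without the 9 libraries the median for Neurog2 alone in EGF + bFGF culture turned to -0.16, with 18 of 30 below 0, and for Neurog2 + Hmgb2 it was -0.66 in EGF + bFGF and -0.38 in bFGF culture. For Neurog2 alone in bFGF culture it was -0.14. The 4 comparisons share their control libraries within a culture.

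Averaged over all groups, the Neurog2 virus lowered 2 of the 30 genes, Gjb2 and Slc4a4, and raised 0, against 6.74% of all tested genes lower and 8.54% higher, so that the share of the 30 was at the background. The median was -0.24, with 22 of 30 below 0. Without the 8 libraries labelled Hmgb2 alone, 1 of 30 was lower, against 3.61% of all genes, namely Gjb2 (-2.19 ± 0.38, adjusted p = 0.00157), and Slc4a4 stood at -0.80 ± 0.26 (adjusted p = 0.0656). That contrast sets Neurog2 and Neurog2 + Hmgb2 libraries against control libraries only. The Hmgb2 virus is then present only on the Neurog2 side, so the effects of the viruses are not separated. Without the 9 libraries at the upper end of the main axis, 10 of 30 were lower and 0 higher, against 11% of all genes lower and 11.3% higher. The 10 were Aqp4, Mlc1, Hepacam, Slc4a4, Gjb2, Slc1a3, Glul, Aldh1l1, Fabp7 and Ndrg2, and their log2 differences ranged between -1.73 and -0.46. In the same 20 libraries Neurog2 + Hmgb2 in EGF + bFGF culture lowered 6 of 30 (Aqp4, Mlc1, Slc4a4, Slc1a3, Glul and Fabp7, between -1.44 and -1.03), against 2.64% of all genes. These counts rest on a choice of libraries made after the data were seen. The count for Neurog2 + Hmgb2 in EGF + bFGF culture sets 2 libraries against 3 control libraries.

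The Hmgb2 virus over all groups gave 0 of 30 (1 of 30 at an unadjusted p under 0.05, against 5.55% of all genes), where 0.0127% of all genes were higher and 0% lower, although 29 of 30 lay below 0 with a median of -0.40. Without the 8 libraries of Hmgb2 alone it gave 0 of 30 as well, with a median of -0.64. In that contrast Neurog2 + Hmgb2 libraries stand against Neurog2 and control libraries, so the Neurog2 virus is not balanced between the sides. Without the 9 libraries of the main axis the Hmgb2 virus gave 0 of 30, with 26 of 30 below 0 and a median of -0.22. The growth factors gave 1 of 30 higher in bFGF culture, Gjb2, and 0 lower, where 0.757% of all genes were higher and 0.426% lower. Without the 8 Hmgb2 libraries this count was 0 of 30, and 0% of all genes were called in either direction. Over the 20 libraries without the 9, 7 of 30 were lower (Slc4a4, Slc1a3, Slc6a11, Glul, Aldh1l1, Acsbg1 and Fabp7, against 3.73% of all genes) and Gjb2 was higher. Between the control libraries of the cultures alone, 0 of 30 genes were called, where 0% of all genes were called higher and 0% lower (2 of 30 unadjusted, against 6.42% of all genes). The tests of whether the Neurog2 effect differs between the cultures, and of whether it differs with Hmgb2, each gave 0 of 30 and 0% of all genes in either direction. Without adjustment each gave 2 of 30, against 2.08% of all genes for the cultures and 1.25% for Hmgb2.

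**Figure D3:**
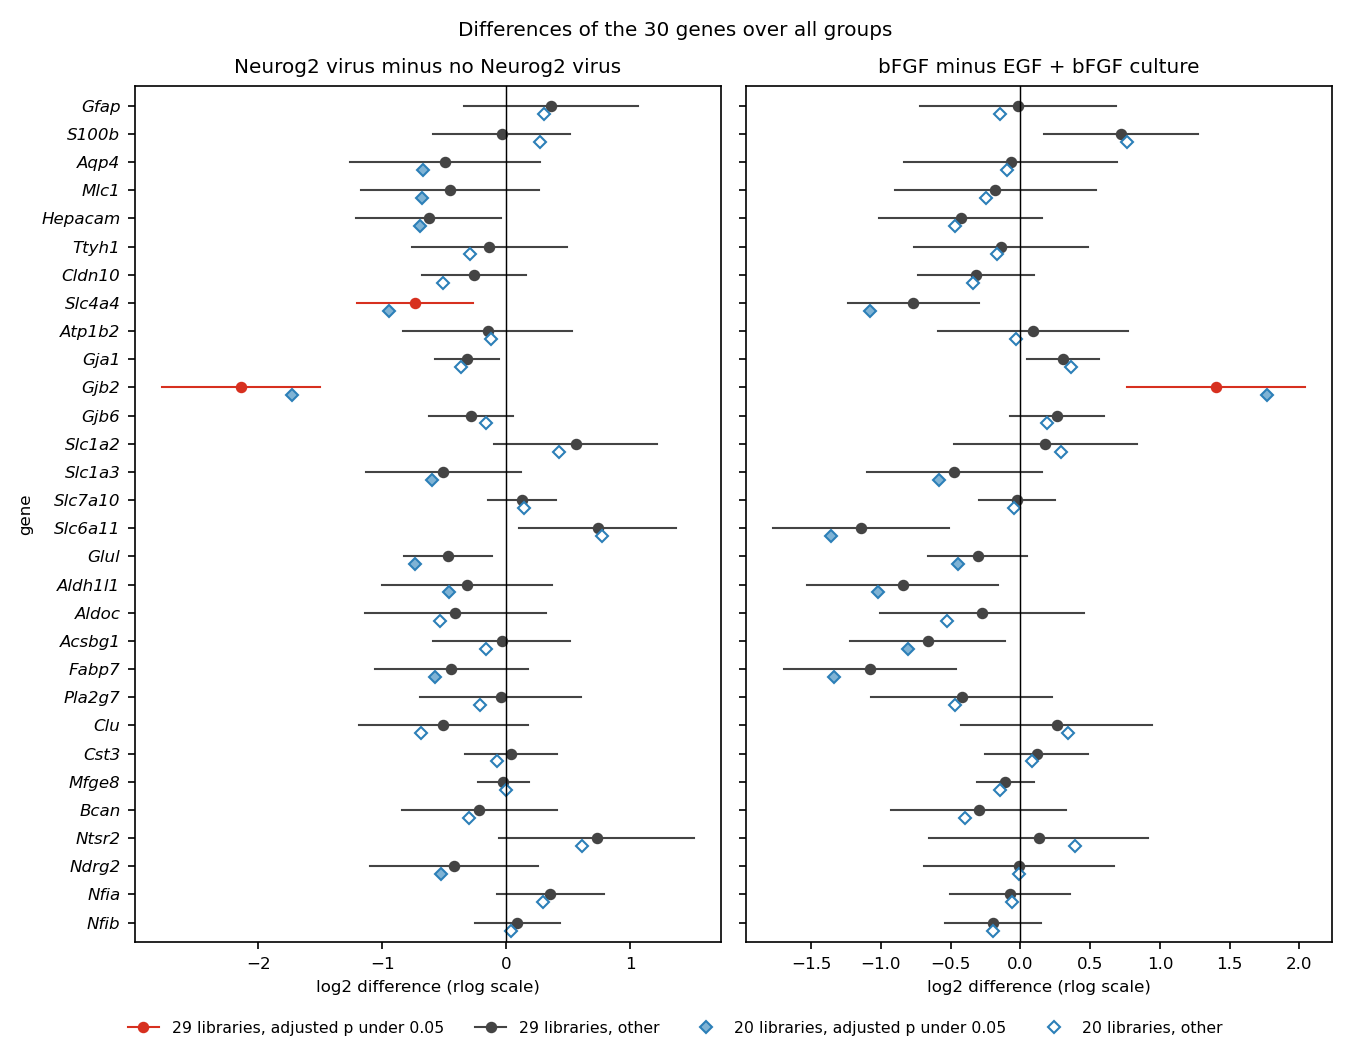
Log2 differences on the rlog scale of the 30 genes over all groups, for libraries with minus libraries without the Neurog2 virus (left) and bFGF minus EGF + bFGF culture (right). Circles with bars are estimates with 95% intervals from 29 libraries, with red marking an adjusted p under 0.05, and diamonds are estimates without the 9 libraries at the upper end of the main axis, filled at an adjusted p under 0.05. Gjb2 stands at -2.14 on the left and 1.40 on the right, and most other intervals on the left include 0.

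Gfap, the filament protein of astrocytes, was among the most abundant transcripts and was not called in any comparison. Its libraries in bFGF culture read 13.77, 15.78 and 15.29 for Neurog2 + Hmgb2, 14.28, 15.81, 15.32 and 15.93 for Neurog2, 13.94, 14.54, 14.64 and 15.86 for Hmgb2, and 15.64, 15.04 and 14.76 for control. In EGF + bFGF culture they read 15.73, 13.20 and 14.94 for Neurog2 + Hmgb2, 15.74, 16.08 and 16.24 for Neurog2, 15.42, 13.04, 15.16 and 15.68 for Hmgb2, and 15.72, 13.70, 13.72, 15.30 and 15.45 for control. The 7 lowest values all belonged to the 9 libraries of the main axis. The 3 EGF + bFGF Neurog2 libraries lay above all 5 control libraries, with a difference of 1.25 ± 0.66 (adjusted p = 0.463), and of 0.53 ± 0.37 without the 9 libraries (adjusted p = 0.527).

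S100b, a calcium-binding protein that rises as astrocytes mature, was low. It read 4.26, 7.03 and 6.28 for Neurog2 + Hmgb2, 5.32, 6.11, 4.72 and 6.77 for Neurog2, 5.58, 5.88, 4.66 and 6.39 for Hmgb2, and 5.64, 5.99 and 5.61 for control in bFGF culture. In EGF + bFGF culture it read 4.91, 4.03 and 5.11 for Neurog2 + Hmgb2, 4.39, 5.76 and 5.36 for Neurog2, 5.22, 4.70, 4.37 and 5.56 for Hmgb2, and 6.00, 5.00, 5.07, 4.85 and 5.35 for control. The cultures overlapped, and the difference of bFGF against EGF + bFGF culture over all groups was 0.72 ± 0.27 (adjusted p = 0.179).

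Of the 7 membrane genes, Aqp4, Mlc1 and Hepacam are partners at astrocyte endfeet and junctions, where Hepacam (GlialCAM) anchors Mlc1. Aqp4 read 10.24, 11.92 and 11.74 for Neurog2 + Hmgb2, 10.24, 12.37, 12.80 and 12.29 for Neurog2, 10.91, 11.85, 12.68 and 12.99 for Hmgb2, and 12.81, 12.07 and 12.89 for control in bFGF culture. In EGF + bFGF culture it read 12.24, 9.88 and 11.54 for Neurog2 + Hmgb2, 12.40, 12.55 and 12.95 for Neurog2, 12.56, 10.19, 12.90 and 13.07 for Hmgb2, and 13.08, 10.68, 11.15, 13.20 and 12.75 for control. In bFGF culture the Neurog2 + Hmgb2 libraries lay below all control libraries, at -1.29 ± 0.80 (adjusted p = 0.428), while in EGF + bFGF culture the groups overlapped. Mlc1 averaged 10.57 ± 0.81 in bFGF Neurog2 + Hmgb2 libraries and 11.93 ± 0.49 in bFGF control libraries (SD, n = 3 each), a difference of -1.37 ± 0.75 (adjusted p = 0.374). Hepacam over all groups differed by -0.63 ± 0.28 with the Neurog2 virus (adjusted p = 0.141), and without the 9 libraries by -0.70 ± 0.14 (adjusted p = 0.00349).

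Slc4a4 (chromosome 5, 88886818 to 89239653 on the plus strand of GRCm38), the sodium bicarbonate cotransporter NBCe1, was called lower with the Neurog2 virus over all groups, but in no single comparison with control. Its values in bFGF culture were 8.80, 8.54 and 8.44 for Neurog2 + Hmgb2, 8.77, 9.24, 9.41 and 9.03 for Neurog2, 9.36, 9.87, 9.76 and 9.46 for Hmgb2, and 10.35, 9.62 and 9.58 for control. In EGF + bFGF culture they were 10.18, 8.60 and 8.91 for Neurog2 + Hmgb2, 9.79, 10.67 and 10.42 for Neurog2, 11.02, 9.01, 10.25 and 11.09 for Hmgb2, and 11.15, 9.26, 9.66, 10.58 and 11.21 for control. In bFGF culture all 7 libraries with the Neurog2 virus lay below the 3 control libraries, and in EGF + bFGF culture the groups overlapped. For Neurog2 + Hmgb2 against control, Slc4a4 stood at -1.26 ± 0.49 in bFGF (adjusted p = 0.215) and -1.14 ± 0.44 in EGF + bFGF culture (adjusted p = 0.229). For Neurog2 alone it stood at -0.74 ± 0.46 in bFGF (adjusted p = 0.709) and -0.07 ± 0.44 in EGF + bFGF culture (adjusted p = 0.974). The difference over all groups was -0.74 ± 0.23 (adjusted p = 0.0296). It was -0.95 ± 0.18 without the 9 libraries (adjusted p = 0.00259) and was lost in 6 of the 29 fits that left out 1 library. These were the fits without EGF + bFGF Neurog2 replicate 1, Neurog2 + Hmgb2 replicate 2 or 3 or Hmgb2 replicate 1, and without bFGF control replicate 1 or Neurog2 + Hmgb2 replicate 3, with differences between -0.72 and -0.66 and an adjusted p of up to 0.0645. Between cultures Slc4a4 stood at -0.77 ± 0.23 in bFGF against EGF + bFGF (adjusted p = 0.0891).

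The remaining membrane genes were not called in any comparison over all libraries in the fit without array weights. Ttyh1, a chloride channel of the tweety family, averaged 9.22 ± 0.87 and 9.64 ± 0.55 in bFGF Neurog2 + Hmgb2 and control libraries (SD, n = 3 each), and Atp1b2, a beta subunit of the sodium-potassium pump, averaged 11.23 ± 1.07 and 11.97 ± 0.19 there. Cldn10, a claudin, was near the low end of the scale, with 2.83 ± 0.04 in bFGF Neurog2 + Hmgb2 and 3.66 ± 0.48 in bFGF control libraries (SD, n = 3 each). Counting the 30 genes, 9 had every bFGF Neurog2 + Hmgb2 library below every bFGF control library (Aqp4, Mlc1, Cldn10, Slc4a4, Gja1, Gjb2, Slc1a3, Glul and Aldh1l1), where 10.8% of all tested genes did.

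The 3 connexins, which form gap junction channels between cells, differed from the rest and from each other. Gja1 and Gjb6 are the main connexins of astrocytes, and Gjb2, also found in leptomeningeal cells, lies 18600 bases from Gjb6 on mouse chromosome 14. The 250 bases before their starts are shown because Gjb2 carried the clearest group difference while its relatives did not (RefSeq, GRCm38.p6, 5' to 3', with E-box letters CANNTG in capitals).
Gjb2 (chr14:57104703-57104952, minus strand): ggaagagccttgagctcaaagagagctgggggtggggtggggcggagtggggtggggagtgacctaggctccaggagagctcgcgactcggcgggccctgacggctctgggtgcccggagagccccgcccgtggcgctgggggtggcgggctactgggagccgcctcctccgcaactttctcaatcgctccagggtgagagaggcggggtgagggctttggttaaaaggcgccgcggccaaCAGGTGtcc
Gjb6 (chr14:57133612-57133861, minus strand): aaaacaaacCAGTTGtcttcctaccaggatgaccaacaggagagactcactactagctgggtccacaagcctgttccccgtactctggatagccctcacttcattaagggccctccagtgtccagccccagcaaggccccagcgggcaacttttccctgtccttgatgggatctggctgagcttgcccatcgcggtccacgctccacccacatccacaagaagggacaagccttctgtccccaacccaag
Gja1 (chr10:56377050-56377299, plus strand): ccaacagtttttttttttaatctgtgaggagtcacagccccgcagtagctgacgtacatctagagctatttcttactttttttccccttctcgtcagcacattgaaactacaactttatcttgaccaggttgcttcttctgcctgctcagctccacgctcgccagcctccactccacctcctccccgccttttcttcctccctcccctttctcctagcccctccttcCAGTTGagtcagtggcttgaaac
Each holds 1 E-box, the letters that basic helix-loop-helix factors such as Neurog2 can bind. That of Gjb2 reads CAGGTG and ends 3 bases before the start, and those of Gjb6 and Gja1 read CAGTTG. Windows with an E-box on either strand made up 66.2% of 32851 such windows of all genes and 74.2% of 31 windows of the 26 astrocyte genes with an entry (Aqp4, Atp1b2, Clu and Nfib had none). The letters CAGATG, on either strand and themselves an E-box, were in 14.4% of all windows and in 9.68% of the 31 (Acsbg1, Fabp7 and Nfia). A match is a description of letters only.

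Gjb2 (chromosome 14, 57098600 to 57104702 on the minus strand of GRCm38) was the gene with the clearest group differences. In bFGF culture it read 4.01, 3.98 and 3.72 for Neurog2 + Hmgb2, 4.12, 6.07, 5.55 and 4.11 for Neurog2, 8.07, 6.47, 7.05 and 8.12 for Hmgb2, and 6.44, 7.98 and 7.37 for control. With EGF + bFGF it read 3.52, 3.95 and 3.68 for Neurog2 + Hmgb2, 3.65, 4.05 and 3.97 for Neurog2, 4.59, 5.98, 4.30 and 5.08 for Hmgb2, and 4.40, 6.92, 6.76, 4.06 and 4.61 for control. In either culture every Neurog2 and Neurog2 + Hmgb2 library lay below every control library, but in EGF + bFGF culture the highest Neurog2 library (4.053) nearly met the lowest control library (4.059). Groups did not overlap, in either direction, in 11.8% of all tested genes for Neurog2 and 7.58% for Neurog2 + Hmgb2 in EGF + bFGF culture. In bFGF culture these shares were 7.5% and 22.3%. The Gjb2 values of the Hmgb2 libraries overlapped with those of the control libraries. With Neurog2 + Hmgb2 it fell by 3.36 ± 0.67 on the log2 scale in bFGF culture (adjusted p = 0.00950), and fell by 3.05 ± 0.51 without the 9 libraries (2 against 2 libraries, adjusted p = 0.00942). Without bFGF control replicate 2 it stood at -3.00 (adjusted p = 0.0791) and without bFGF Neurog2 + Hmgb2 replicate 3 at -3.26 (adjusted p = 0.0512). The other comparisons with control did not pass the test, at -2.30 ± 0.63 for Neurog2 in bFGF (adjusted p = 0.132), -1.63 ± 0.60 for Neurog2 + Hmgb2 in EGF + bFGF (adjusted p = 0.191) and -1.46 ± 0.60 for Neurog2 in EGF + bFGF culture (adjusted p = 0.293). Without the 9 libraries, which include the highest EGF + bFGF control libraries (6.92 and 6.76), the difference stood at -1.66 ± 0.47 for Neurog2 in bFGF, -0.76 ± 0.47 for Neurog2 + Hmgb2 in EGF + bFGF and -0.47 ± 0.42 for Neurog2 in EGF + bFGF culture.

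Over all groups Gjb2 fell by 2.14 ± 0.31 on the log2 scale with the Neurog2 virus (adjusted p = 3.5e-05), a call that held in all 29 fits that left out 1 library, with differences between -2.24 and -2.04. The culture raised it by 1.40 ± 0.31 in bFGF against EGF + bFGF (adjusted p = 0.0320), a call that was lost in 11 of those 29 fits (without EGF + bFGF control 5, Neurog2 1 or 2, Neurog2 + Hmgb2 1 or Hmgb2 1, or bFGF control 2 or 3, Hmgb2 1 or 4, or Neurog2 + Hmgb2 2 or 3, with differences of 1.31 to 1.43) and without the 8 libraries labelled Hmgb2 alone (1.06 ± 0.37, adjusted p = 0.372). The difference of the Neurog2 effect between the cultures was -1.55 ± 0.62 and did not pass (adjusted p = 1.00). Gjb2 is also in a gene list that the study drew from these libraries, so the calls are no independent evidence. Values for the 7 fibroblast and meningeal markers stand beside it, since Gjb2 is also a gene of the meninges: their mean ranged between 10.5 and 12.6 in bFGF and between 9.32 and 11.7 in EGF + bFGF libraries. All 7 of these markers stood higher in bFGF culture, with a median of 1.30, and Dcn (1.84 ± 0.36, adjusted p = 0.0188) and Pdgfra (1.42 ± 0.34, adjusted p = 0.0417) were called, while with the Neurog2 virus their median was -0.08. Within the 20 libraries outside the 9, deviations of their mean from group means ran with those of Gjb2 (r = 0.63, rho = 0.64, and r = 0.48 without the 2 farthest libraries), given as a description. Their part in the Gjb2 level was not tested.

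Gja1 (connexin 43) varied little between libraries of a group and was not called. It averaged 11.08 ± 0.19 and 11.86 ± 0.30 in bFGF Neurog2 + Hmgb2 and control libraries (SD, n = 3 each), a difference of -0.78 ± 0.27 (adjusted p = 0.162) with no overlap between the groups, and -0.32 ± 0.12 with the Neurog2 virus over all groups (adjusted p = 0.0871). The 3 bFGF control libraries lay above all 5 EGF + bFGF control libraries, which averaged 11.24 ± 0.08 (SD, n = 5). Gjb6 lay between 1.94 and 3.87 in all libraries, and its difference with the Neurog2 virus was -0.29 ± 0.16 (adjusted p = 0.252).

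**Figure D4:**
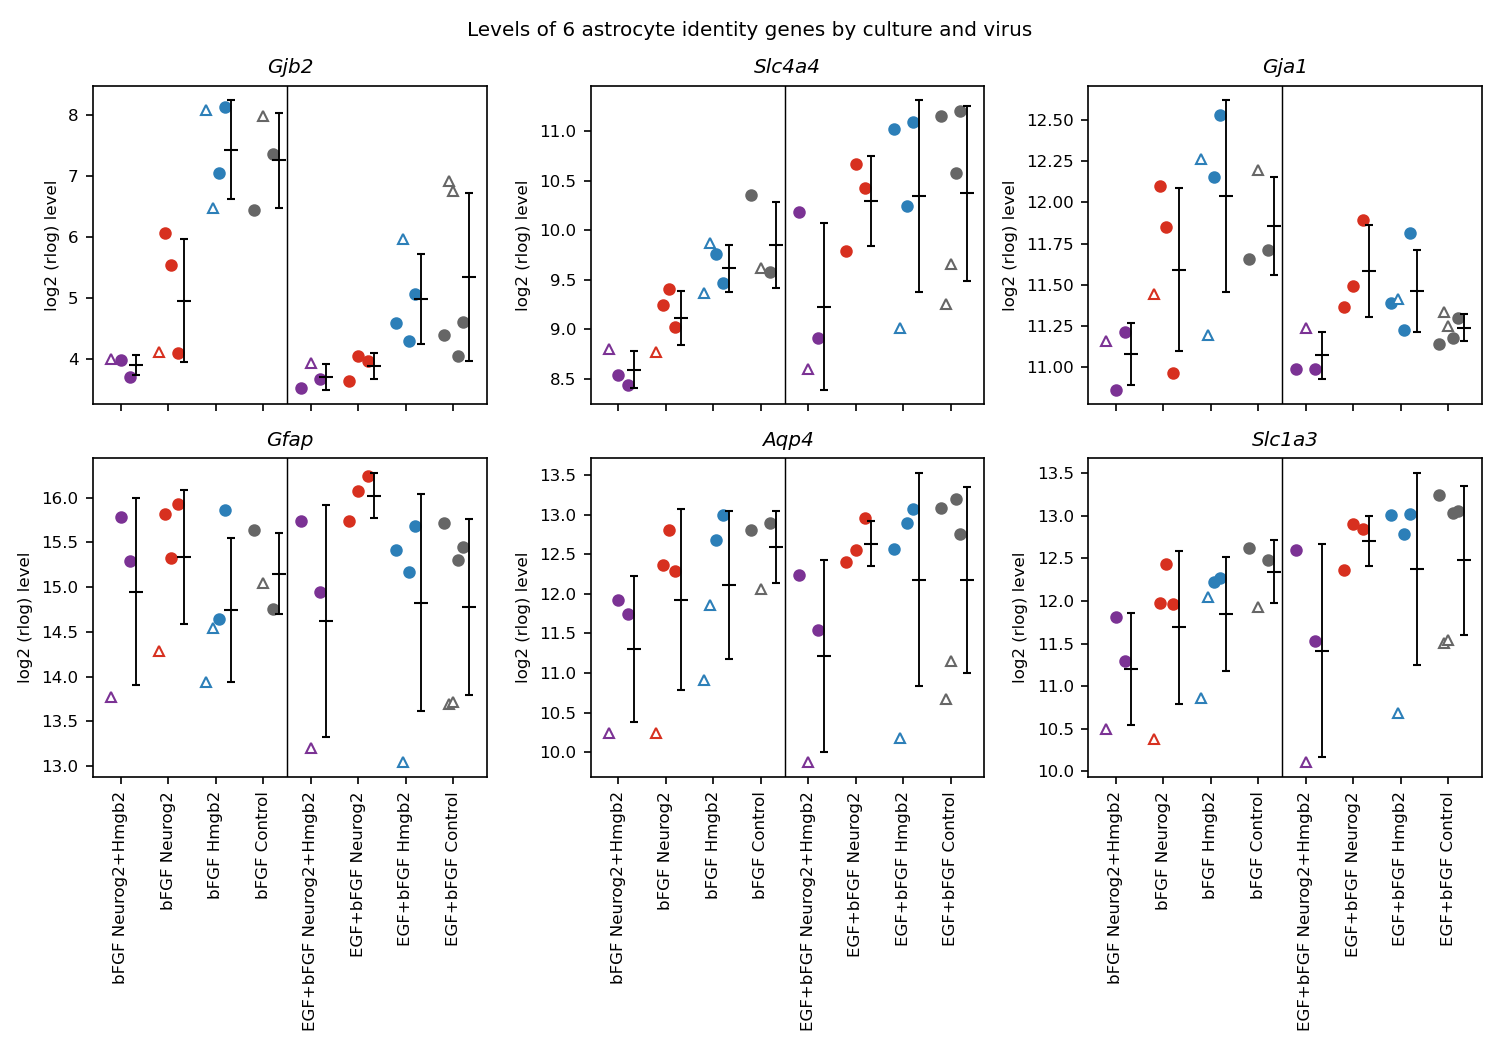
Log2 rlog level of 6 genes in each library, by culture (bFGF left of the line, EGF + bFGF right) and virus, with the mean and SD of each group as black marks. Open triangles are the 9 libraries at the upper end of the main axis, which lie low in most groups for Gfap, Aqp4 and Slc1a3 but not for Gjb2 and Gja1, and the Neurog2 + Hmgb2 libraries hold Gjb2 values of 3.52 to 4.01.

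The amino acid genes include the glutamate transporters Slc1a2 (GLT-1) and Slc1a3 (GLAST) and glutamine synthetase, Glul, which together clear glutamate. Slc1a3 read 10.50, 11.81 and 11.29 for Neurog2 + Hmgb2, 10.38, 11.98, 12.43 and 11.97 for Neurog2, 10.86, 12.04, 12.22 and 12.26 for Hmgb2, and 12.62, 11.92 and 12.48 for control in bFGF culture. With EGF + bFGF it read 12.60, 10.11 and 11.54 for Neurog2 + Hmgb2, 12.37, 12.90 and 12.84 for Neurog2, 13.01, 10.69, 12.78 and 13.01 for Hmgb2, and 13.25, 11.51, 11.54, 13.04 and 13.05 for control. The bFGF Neurog2 + Hmgb2 libraries lay below the bFGF control libraries, at -1.15 ± 0.65 (adjusted p = 0.390), and the other groups overlapped with their controls.

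Slc1a2 was called in no comparison in the fit without array weights or a replicate block. It read 9.01, 10.51 and 10.18 for Neurog2 + Hmgb2, 8.92, 9.98, 11.30 and 10.44 for Neurog2, 8.30, 9.33, 10.83 and 9.66 for Hmgb2, and 9.64, 9.08 and 11.09 for control in bFGF culture. With EGF + bFGF it read 10.47, 8.51 and 10.43 for Neurog2 + Hmgb2, 10.68, 10.15 and 10.46 for Neurog2, 9.53, 8.22, 10.28 and 9.50 for Hmgb2, and 9.52, 8.45, 8.40, 10.19 and 9.42 for control. The Neurog2 virus stood at 0.56 ± 0.32 for Slc1a2 (adjusted p = 0.250) and at -0.51 ± 0.30 for Slc1a3 (adjusted p = 0.277) over all groups, and neither passed. With a replicate block within each culture, Slc1a2 was called higher with the Neurog2 virus (0.67 ± 0.22, adjusted p = 0.0398). Whether the replicate numbers pair the libraries is not known. Glul stood at -0.47 ± 0.17 (adjusted p = 0.0673), and at -0.73 ± 0.12 without the 9 libraries (adjusted p = 9.5e-04).

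Slc6a11 (GAT3), the GABA transporter, had its highest group mean in EGF + bFGF Neurog2 libraries. It averaged 6.13 ± 1.31 there (SD, n = 3) and 4.48 ± 0.81 in EGF + bFGF control libraries (SD, n = 5), a difference of 1.66 ± 0.59 that did not pass (adjusted p = 0.198). Without replicate 1 of that Neurog2 group it was called, as the only 1 of the 30. In bFGF culture it averaged 4.21 ± 0.63 for Neurog2 (SD, n = 4) and 3.55 ± 0.56 for control (SD, n = 3), and between the cultures over all groups it stood at -1.14 ± 0.31 (adjusted p = 0.0632). Slc7a10 lay between 3.41 and 4.62 in all 29 libraries.

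Of the metabolic genes, Aldh1l1, a folate enzyme used as a pan-astrocyte marker, read 8.90, 10.08 and 9.90 for Neurog2 + Hmgb2, 8.86, 10.35, 10.60 and 10.36 for Neurog2, 9.12, 10.17, 10.50 and 10.52 for Hmgb2, and 11.42, 10.13 and 10.32 for control in bFGF culture. With EGF + bFGF it read 11.35, 8.68 and 10.42 for Neurog2 + Hmgb2, 11.87, 11.50 and 11.44 for Neurog2, 11.89, 9.43, 11.71 and 11.47 for Hmgb2, and 11.75, 9.44, 9.79, 11.57 and 11.81 for control. Libraries of EGF + bFGF culture outside the 9 were mostly above those of bFGF culture. The difference of bFGF against EGF + bFGF culture was -0.84 ± 0.33 over all libraries (adjusted p = 0.210) and -1.02 ± 0.14 without the 9 (adjusted p = 0.00193). Fabp7 stood at -1.08 ± 0.30 (adjusted p = 0.0688) and at -1.33 ± 0.16 without the 9 (adjusted p = 0.00117), and Acsbg1, a ligase for long-chain fatty acids, at -0.67 ± 0.27 (adjusted p = 0.225) and -0.81 ± 0.17 (adjusted p = 0.0133). Aldoc, the aldolase of the brain, and Pla2g7, a phospholipase for platelet activating factor, were not called with or without the 9 libraries, at -0.27 ± 0.35 and -0.42 ± 0.31 over all libraries.

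The secreted and matrix genes were not called in any comparison in the fit without array weights. Clu (clusterin, an apolipoprotein) averaged 11.36 ± 0.84 and 12.75 ± 0.84 in bFGF Neurog2 + Hmgb2 and control libraries (SD, n = 3 each), a difference of -1.39 ± 0.72 (adjusted p = 0.347). Cst3 (cystatin C) averaged 13.17 ± 0.55 and 13.65 ± 0.12 there, and Bcan (brevican, a proteoglycan of the brain matrix) averaged 8.63 ± 0.89 and 9.19 ± 0.67. Mfge8 had the smallest within-group SD of the 30, 0.264, and its difference with the Neurog2 virus over all groups was -0.02, with a 95% interval between -0.23 and 0.18.

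Of the receptor and signalling genes, Ntsr2, a neurotensin receptor of astrocytes, had the largest within-group SD, 1.07. It averaged 7.30 ± 1.21 in EGF + bFGF Neurog2 libraries (SD, n = 3) and 5.64 ± 0.80 in EGF + bFGF control libraries (SD, n = 5), a difference of 1.66 ± 0.74 (adjusted p = 0.349), and stood at 0.73 ± 0.38 with the Neurog2 virus over all groups (adjusted p = 0.209). Ndrg2, a cytoplasmic protein of the NDRG family that marks astrocytes, stood at -0.42 ± 0.33 (adjusted p = 0.430), and at -0.53 ± 0.14 without the 9 libraries (adjusted p = 0.0163). Nfia and Nfib, nuclear factor I proteins that drive gliogenesis, were called in no comparison in the fit without array weights. Nfia averaged 10.94 ± 0.35 in EGF + bFGF Neurog2 libraries (SD, n = 3) and 10.04 ± 0.50 in EGF + bFGF control libraries (SD, n = 5), a difference of 0.90 ± 0.40 (adjusted p = 0.350), or 0.55 ± 0.20 without the 9 libraries (adjusted p = 0.182), and Nfib stood at 0.09 ± 0.17 over all groups (adjusted p = 0.770).

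Further astrocyte genes, a list of 43 with none of the 30 in it, gave a like picture. With the Neurog2 virus over all groups 3 of 43 fell and 2 of 43 rose, with a median of -0.21, where 6.74% of all tested genes fell and 8.54% rose, so that the list was near the background. F3, the coagulation tissue factor that astrocytes express, fell by 1.15 ± 0.13 on the log2 scale (adjusted p = 1.8e-06), Id3, an inhibitor of basic helix-loop-helix factors, fell by 0.43 ± 0.09 (adjusted p = 0.00184), and the third was Slco1c1, a thyroid hormone transporter. Grin2c, an NMDA receptor subunit, rose by 1.24 ± 0.18 (adjusted p = 2.9e-05), and Mertk, a phagocytic receptor, by 0.54 ± 0.12 (adjusted p = 0.00330). F3 was also called for Neurog2 + Hmgb2 against control in each culture, at -1.41 ± 0.28 in bFGF (adjusted p = 0.0102) and -1.54 ± 0.25 in EGF + bFGF (adjusted p = 0.00112), and Id3 was the other gene called for Neurog2 + Hmgb2 in EGF + bFGF culture, at -0.77 ± 0.17 (adjusted p = 0.0174). For Neurog2 alone in EGF + bFGF culture 1 of the 43 rose, Grin2c, by 2.18 ± 0.34 (adjusted p = 6.5e-04), and 1 fell, F3, at -1.02 ± 0.25 (adjusted p = 0.0374).

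Between the cultures, 1 of the 43 rose in bFGF against EGF + bFGF, Papss2 (1.04 ± 0.17, adjusted p = 0.00893), and 1 fell, Cbs (-1.06 ± 0.18, adjusted p = 0.00955), enzymes of sulfate activation and of transsulfuration. Of 16 reactive astrocyte genes, the intermediate filament Vim (-0.50 ± 0.13, adjusted p = 0.0100) and the hyaluronan receptor Cd44 (-0.51 ± 0.17, adjusted p = 0.0457) fell with the Neurog2 virus and 0 rose. Over all tested genes 6.74% fell and 8.54% rose with the Neurog2 virus, and each list count for that virus is to be read against these shares. In the neuron list 7 of 13 rose with the Neurog2 virus and 1 of 13 fell, with Rbfox3 at 2.89 ± 0.25 (adjusted p = 2.1e-08) and Dcx at 2.76 ± 0.29 (adjusted p = 5.3e-07). The microglial list moved as well, with 4 of 18 higher and 18 of 18 above 0. Of 9 pericyte and smooth muscle markers tested 3 fell, Myh11, Acta2 and Tagln, of 6 endothelial markers tested 2 fell, Tek and Esam, and of 7 fibroblast and meningeal markers 1 fell, Fn1. Of 12 oligodendrocyte lineage markers 1 rose in bFGF culture, Pdgfra. The part of such cells in the astrocyte values was not tested.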

How the data were processed

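RNA from sorted astrocytes was made into cDNA with SMART-Seq v4, which does not mark strand. Per the study's methods, reads were mapped to mm10 with STAR and counted with HTSeq 0.9.1 on GENCODE M25 genes, and the authors deposited 1 table of rlog values from DESeq2 (log2 scale, 25239 genes, 29 libraries; version 1.36.0 in the submitters' notes). Counts and depth were not used here. Every column was mapped by its label. A linear model with 1 mean per group over 29 libraries (limma 3.58.1 in R 4.3.3, variance trend, 21 residual degrees of freedom) was fitted to 15719 genes with a mean rlog of at least 1 (9520 left out), with Benjamini-Hochberg adjustment over all of them and calls at an adjusted p under 0.05. The fit was tested on simulated data. All 30 genes are named, with values per library for called genes and for Gfap, Aqp4, Slc1a2, Slc1a3, S100b and Aldh1l1, and up to 4 called genes per further list. The genes and lists were chosen with earlier results of these data known. Exon lengths came from GENCODE M21 (GRCm38) by symbol. Exons of Slc7a10, Aldh1l1 and Pla2g7 share 17.9%, 11.0% and 11.0% of their bases with a gene on the other strand, whose reads cannot be told apart from theirs. Alternatives were another filter, scaling, weights, variance trend, replicate block, fold and each library left out. Figures were drawn with matplotlib 3.10.9 in Python 3.11.15.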

Additional observations from a re-analysis of the deposited data

Results flagged for a closer look

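In groups of 4 or 5 libraries, the lowest or highest value of a gene was compared with its nearest neighbour, relative to the range of the group. Of 120 such tests, 12 flagged a library that lay far from the others, where chance flags about 1 in 20, or 6. All 12 were the lowest value of their group. EGF + bFGF Hmgb2 replicate 2 had Mlc1 at 9.62 (next lowest 12.18), Ttyh1 at 8.10, Slc1a3 at 10.69, Acsbg1 at 9.74, Fabp7 at 11.73 and Bcan at 7.20. In bFGF Neurog2 replicate 1, Hepacam stood at 8.03, Aldh1l1 at 8.86 and Ndrg2 at 8.91. In bFGF Hmgb2 replicate 1, Slc1a3 stood at 10.86, Slc7a10 at 3.56 and Bcan at 8.03. These 3 libraries are among the 9 at the upper end of the main axis.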

How the results depend on the processing

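Depth could not be judged from rlog values. Array weights, whose estimation stopped before it converged, gave the most calls: 4 genes for Neurog2 (Glul lower, Slc6a11, Ntsr2 and Nfia higher) and 5 lower for Neurog2 + Hmgb2 against control in EGF + bFGF culture, 7 lower for Neurog2 + Hmgb2 in bFGF culture, and 1 higher for the culture in control libraries. Over all groups they gave 11 for the Neurog2 virus (Slc1a2, Slc6a11, Ntsr2 and Nfia higher, the others lower) and 14 for the culture (S100b, Gja1 and Gjb2 higher, the others lower). For the Neurog2 virus over all groups the count of 2 became 1 with no filter on low values (Slc4a4 -0.74, adjusted p = 0.0566), 1 at a fold above 2, 1 without the Hmgb2 groups and 10 without the 9 libraries. For the culture over all groups the count of 1 became 0 with no filter (Gjb2 1.40, adjusted p = 0.0577), 2 with quantile normalization, 0 without the Hmgb2 groups and 8 without the 9 libraries, which also gave 6 for Neurog2 + Hmgb2 in EGF + bFGF culture. Leaving out each library in turn gave 0 to 1 for Neurog2 in EGF + bFGF, 0 to 1 for Neurog2 + Hmgb2 in bFGF (0 without control replicate 2 or Neurog2 + Hmgb2 replicate 3, where Gjb2 stood at -3.00 and -3.26), 1 to 4 for the Neurog2 virus and 0 to 4 for the culture. In the Neurog2 virus comparison Gjb2 kept its call under every alternative, and no called gene changed direction. The same limit holds for the counts with 1 library left out, which also stand without the shares of all tested genes. Causes were not tested.

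The labels do not say whether replicate numbers pair the libraries. Deviations of same-numbered libraries within a culture correlated between -0.61 and 0.81, over 0.1 in 25 of 38 pairs. Differently numbered libraries were not compared, so these values cannot decide whether libraries were paired. With a replicate block, Gjb2 stood at -2.25 for the Neurog2 virus, and Slc4a4 at -0.65 (adjusted p = 0.0449). The block kept every count of called genes within the limit of 1.5 times, but moved medians of the 30 genes: to 0.67 for Neurog2 and -0.25 for Neurog2 + Hmgb2 in EGF + bFGF culture, to -0.14 for the Neurog2 virus over all groups, to -0.51 for Hmgb2 in bFGF culture and to 0.47 for the culture in control libraries. A block within each culture gave 3 called genes for the Neurog2 virus, with Slc1a2 higher, and was not run for the culture comparisons, since it takes up the difference between cultures.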
